A study of Rattus norvegicus with 12 samples.

Results

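Voltage-gated sodium channels and the pacemaker channel Hcn2 were followed on Agilent 1-colour arrays of neuron-enriched cultures from rat cerebellum. The members were 8 genes, chosen by name: Scn1a, Scn3a, Scn8a and Scn4a encode pore-forming α subunits, Scn2b, Scn3b and Scn4b encode β subunits, and Hcn2 encodes a hyperpolarisation-activated channel. Each gene had 1 probe, which gave 8 of the 30367 gene probes on the array. All 8 passed the filter on low signal, as did 23796 probes in all.

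The cells came from the cerebellum of 1-day-old Sprague-Dawley rats and were collected at 16 days in vitro. In 6 control cultures the medium held the solvent dimethyl sulfoxide at 0.001%, and in 6 exposed cultures it held the same solvent with 1 µM acetamiprid (ACE), a neonicotinoid insecticide that acts on nicotinic acetylcholine receptors, from day 2 onward. Both groups began in medium with 1% fetal bovine serum and were then kept without serum. Per the study's methods the pups of a litter were pooled for a culture lot, and each lot supplied a culture of every group. The replicate number of the labels was taken to mark the lot, a link that neither source states in words, so that n = 6 lots. Control and ACE cultures were compared within lots in the reported fit.

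Sodium channel α subunits form the pore that opens on depolarisation and starts the action potential, while the single-pass β subunits alter gating and placement of the channel in the membrane. Scn3a (Nav1.3) is mostly an embryonic and neonatal subunit, Scn1a (Nav1.1) and Scn8a (Nav1.6) come to prevail as neurons mature, and Scn4a (Nav1.4) is the channel of skeletal muscle. In Purkinje cells, Nav1.6 together with the β4 subunit (Scn4b) is known for the resurgent current of fast repetitive firing. HCN channels open on hyperpolarisation and carry the pacemaker current Ih.

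A measurement here was the binding of labelled RNA to a 60-base probe, so a value speaks for transcripts that hold that stretch. The probes of the embryonic subunit Scn3a, of the β subunit Scn2b and of Hcn2 are shown because these members stand for the 3 kinds of subunit described. Per the files they lay at chr3:47421917-47421976 on the minus strand, chr8:48078455-48078514 on the plus strand and chr7:11485814-11485873 on the minus strand of rat build rn4. They are written 5′ to 3′ in lower case, and no base is marked.
Scn3a: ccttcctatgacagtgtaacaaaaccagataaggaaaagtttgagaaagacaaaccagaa
Scn2b: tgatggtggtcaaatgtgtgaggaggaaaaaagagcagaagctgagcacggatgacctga
Hcn2: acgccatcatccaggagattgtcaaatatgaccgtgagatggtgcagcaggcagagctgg
The other probes lay at chr3:48238557-48238616 (minus strand) for Scn1a, chr7:139794162-139794221 (plus) for Scn8a, chr8:43253930-43253989 (plus) for Scn3b, chr8:48106487-48106546 (plus) for Scn4b and chr10:95710768-95710827 (minus) for Scn4a. No annotation of that build was used here, so exon, intron and UTR were not assigned.

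No member differed between control and ACE cultures beyond the spread between pairs. Of the 8 members, 5 were higher on average in ACE (Scn1a, Scn3a, Scn8a, Scn2b and Hcn2) and 3 were lower (Scn3b, Scn4b and Scn4a). None reached a change of 1.5-fold, against 1.72% of all probes, and none moved the same way in all 6 pairs. The ranges of the control and ACE values overlapped for each member, and 0.0126% of all probes had ranges that did not overlap. With limma and the lot as a block, 0 of 8 passed the adjusted threshold of 0.05, against 0% of all 23796 probes, for which the lowest adjusted p was 0.141. At an unadjusted limma p under 0.05 the count was also 0 of 8, against 16.6% of all probes, and in the exact signed-rank test it was 0 of 8 against 11.6%. With 6 pairs the signed-rank p is under 0.05 only when all 6 go the same way, so that count followed from the directions above. The 95% intervals of 6 members lay within 1.5-fold in either direction, and those of Scn2b and Scn4a did not. The share of all probes with such intervals is not given here.

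**Figure D1:**
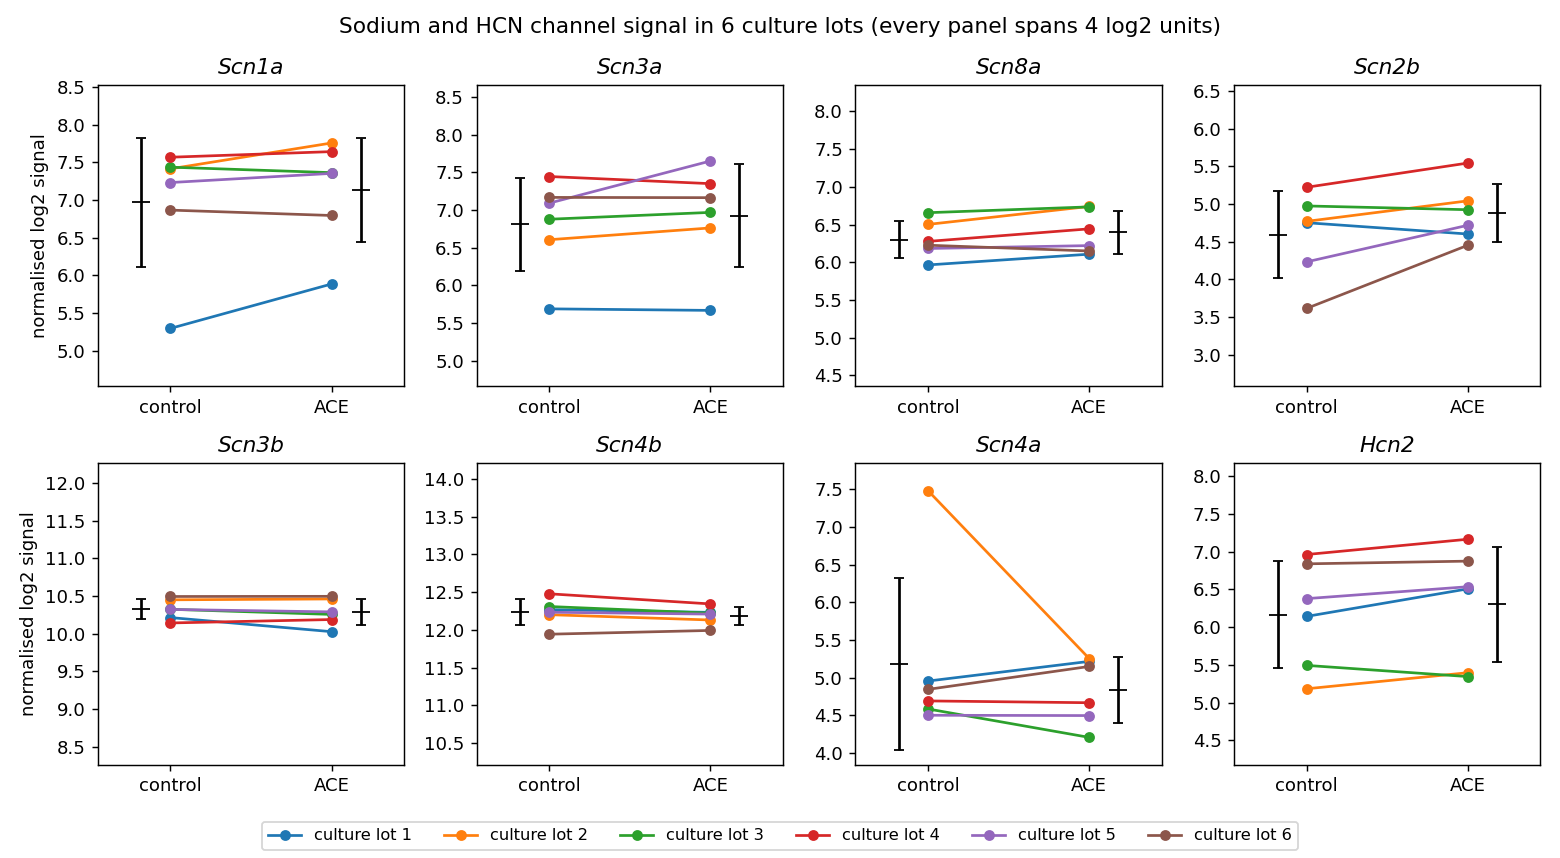
Normalised log2 signal (vertical axis) of the 8 members in control and ACE cultures, with a line joining the 2 cultures of a lot and, at the sides, the mean ± SD of each group (n = 6). The lines keep apart by lot more than they slope, except for Scn4a, where control lot 2 stands at 7.48 and its ACE partner at 5.26.

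All levels below are quantile-normalised log2 signals, and they compare samples for 1 probe and never 1 gene with another. Scn1a, the main sodium channel subunit of inhibitory neurons such as Purkinje cells, ranged from 5.30 through a median of 7.32 to 7.57 in the control cultures. In the ACE cultures its lowest, median and highest signals were 5.89, 7.36 and 7.76. The lowest value of both groups was that of lot 1, and without this lot the remaining 10 values lay between 6.79 and 7.76. The difference, ACE minus control, was 0.16 ± 0.095 on the log2 scale (SE, n = 6 pairs), or 1.12-fold with a 95% interval from 0.957 to 1.31, and 4 of 6 pairs were higher in ACE (limma adjusted p = 0.424). It was 0.079 without lot 1, 0.041 in lots 4 to 6 (1 scan batch), 0.074 with a 75th percentile shift in place of quantiles and 0.069 with normexp background.

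Scn3a, the α subunit that declines after birth, had control signals from 5.69 through 6.98 to 7.44 and ACE signals from 5.67 through 7.06 to 7.65. Lot 1 was again lowest in both groups. The pairs were evenly split, 3 higher and 3 lower, with a difference of 0.11 ± 0.087, or 1.08-fold (95% interval 0.937 to 1.25, limma adjusted p = 0.530). The largest single step was in lot 5, where the signal was 7.09 in the control and 7.65 in the ACE culture, and without that lot the mean difference was 0.026. With the 75th percentile shift it was 0.044.

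Scn8a, whose product gathers at the axon initial segment and nodes, varied least of the 3 neuronal α subunits. Its control signals ran from 5.96 through 6.25 to 6.66 and its ACE signals from 6.11 through 6.33 to 6.74. ACE was higher in 5 of 6 pairs, as were 17.3% of all probes in at least 5 pairs, and the exception was lot 6. The difference was 0.098 ± 0.045, or 1.07-fold (95% interval 0.994 to 1.15, limma adjusted p = 0.332, exact signed-rank p = 0.0938). It shrank to 0.0084 with the 75th percentile shift, to 0.060 with normexp and to 0.043 in lots 4 to 6. Without lot 6 it was 0.13 and passed the unadjusted limma threshold, as did 12.7% of all probes.

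The question whether ACE shifted the balance from embryonic to mature α subunits was addressed as a difference of differences within each pair, with 4 contrasts in the family. Scn1a relative to Scn3a moved by 0.050 ± 0.15 log2 units (SE, n = 6), with 3 pairs up and 3 down (exact sign-flip permutation test, two-sided, p = 0.719, adjusted p = 0.875). Scn8a relative to Scn3a moved by −0.017 ± 0.11 (exact p = 0.875, adjusted p = 0.875). For Scn8a relative to Scn1a the value was −0.066 ± 0.086 (exact p = 0.594, adjusted p = 0.875). The directions of these 3 contrasts were not stable. Scn1a relative to Scn3a turned to −0.019 with normexp, −0.11 in lots 4 to 6 and −0.063 without lot 1, Scn8a relative to Scn3a to 0.084 without lot 5, and Scn8a relative to Scn1a to 0.0098 without lot 1 and 0.0013 in lots 4 to 6. The β subunits Scn4b relative to Scn2b gave −0.34 ± 0.13, lower in 5 of 6 pairs (exact p = 0.0938, adjusted p = 0.375), and it was −0.12 with normexp, −0.22 with the 75th percentile shift and −0.58 in lots 4 to 6 alone. This contrast includes Scn2b, whose probe was well above background on only 4 of 6 control and 5 of 6 ACE arrays. No balance passed the threshold, and with 6 pairs the smallest p that this test can give is 0.03125, which becomes 0.125 when 1 of 4 contrasts reaches it.

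Of the β subunits in the reported fit, Scn2b had the largest mean difference between ACE and control cultures and Scn3b the smallest, and none passed a threshold. With the 75th percentile shift the smallest was that of Scn4b (−0.046, against −0.051 for Scn3b). Scn2b, which binds the α subunit through a disulfide bond, had control signals of 4.75, 4.77, 4.97, 5.22, 4.23 and 3.62 in lots 1 to 6. The ACE signals of the same lots were 4.60, 5.04, 4.92, 5.54, 4.72 and 4.45. ACE was higher in lots 2, 4, 5 and 6, by up to 0.84 in lot 6, and lower in lots 1 and 3. The mean difference was 0.29 ± 0.13, or 1.22-fold (95% interval 0.981 to 1.52, limma adjusted p = 0.333, exact signed-rank p = 0.156). This probe was well above background on 4 of 6 control and 5 of 6 ACE arrays, the only member not detected on all 12. In the scan batch that held several pairs, lots 4 to 6, the Scn2b difference was 0.55 and passed the unadjusted limma threshold, as did 14% of all probes in that batch. It was smaller, and did not pass, with normexp (0.065), with the 75th percentile shift (0.17) and without lot 6 (0.18). Without lot 1 (0.37) or lot 3 (0.35) it passed the unadjusted limma threshold, as did 16.5% and 17.5% of all probes.

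Scn3b, a β subunit prominent in developing brain, was almost level. Its control signals ran from 10.14 through 10.32 to 10.49 and its ACE signals from 10.03 through 10.27 to 10.50. The pairs, 3 higher and 3 lower, gave a difference of −0.038 ± 0.036, or 0.974-fold (95% interval 0.917 to 1.03, limma adjusted p = 0.615), and without lot 1 the difference was −0.0083.

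Scn4b, the β4 subunit named above for the resurgent current, was read from 10 spots on each array. Its control signals ran from 11.94 through 12.25 to 12.48, and its ACE signals from 11.99 through 12.21 to 12.34. ACE was lower in 5 of 6 pairs, as were 21.4% of all probes in at least 5 pairs, and lot 6 was the exception. The difference of −0.051 ± 0.030, or 0.965-fold, had the narrowest 95% interval on the log2 scale of the 8 members, from −0.12 to 0.02 (limma adjusted p = 0.440, exact signed-rank p = 0.156).

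Hcn2, the HCN subunit of many central neurons, had control signals from 5.18 through 6.26 to 6.96 and ACE signals from 5.34 through 6.52 to 7.17. Lots 2 and 3 were low in both groups and lot 4 was highest in both. ACE was higher in 5 of 6 pairs and lower in lot 3. The difference was 0.14 ± 0.066, or 1.1-fold (95% interval 0.985 to 1.23, limma adjusted p = 0.352, exact signed-rank p = 0.0938). With background corrected by normexp in place of the scanner software, the difference was 0.086 and passed the unadjusted thresholds of limma, as did 18.1% of all probes, and of the exact signed-rank test, as did 12.2%. With the 75th percentile shift it was 0.042 and did not pass, and without lot 3 it was 0.20 and passed in limma, as did 17.5% of all probes.

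**Figure D2:**
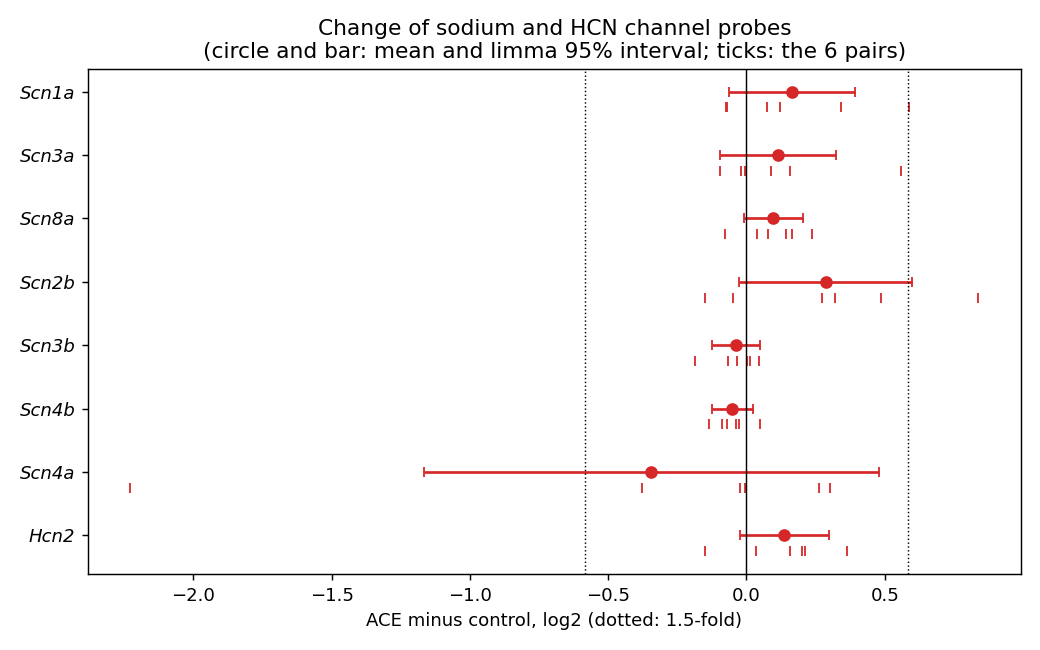
ACE minus control on the log2 scale (horizontal axis) for the 8 members, with circles and bars for the mean and limma 95% interval and ticks for the 6 pairs. The intervals of all 8 members include 0, and the tick of Scn4a at −2.23 is lot 2.

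Scn4a, the α subunit of skeletal muscle fibres, was the member with the widest interval. Its control signals in lots 1 to 6 were 4.96, 7.48, 4.59, 4.69, 4.50 and 4.85, and the ACE signals were 5.22, 5.26, 4.21, 4.67, 4.50 and 5.15. The control culture of lot 2 stood far above the other 11, and the remaining values of both groups overlapped. The mean difference was −0.34 ± 0.34, or 0.787-fold (95% interval 0.445 to 1.39, limma adjusted p = 0.633, exact signed-rank p = 0.5625). It rested on lot 2, whose pair differed by −2.23. Without that lot the difference was 0.03, with the sign turned.

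Skeletal muscle genes moved with Scn4a in lot 2 and not in every other lot. The mean log2 signal of 14 tested muscle genes (15 probes, among them Mylpf, a fast myosin light chain, and Acta1, skeletal α-actin) ranged from 7.27 to 11.26 in control and from 7.18 to 9.96 in ACE cultures. It was 11.26 in the control and 7.52 in the ACE culture of lot 2, where Scn4a was 7.48 and 5.26. In lot 1 the muscle mean was 10.69 and 9.96 while Scn4a was 4.96 and 5.22. In lot 6 the muscle mean was 8.84 in the control and 7.18 in the ACE culture, while Scn4a was 4.85 and 5.15. Of the 15 muscle probes 10 were well above background on all 12 arrays, none was below it on all 12, and Myod1 and Ryr1 did not pass the filter. All 15 were lower on average in ACE, with a median difference of −1.12 against −0.0050 over all probes, and 4 passed the unadjusted limma threshold, against 9.73% of all probes that were lower. Without lot 2, 14 of the 15 were lower with a median of −0.45. With 1 lot left out, the muscle probes past the threshold numbered from 2 (without lot 6) to 6 (without lot 4). There 12.7% and 14% of all probes passed in either direction. The number was 10 with the lot as a random block (16.8% of all probes) and 0 without a block (0.34%). In lots 4 to 6 alone it was 2 (14% of all probes), and 13 of the 15 were lower. The part of muscle transcripts in the Scn4a values was not tested, and in RNA of a whole culture fewer cells of a type and less RNA per cell cannot be told apart.

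**Figure D3:**
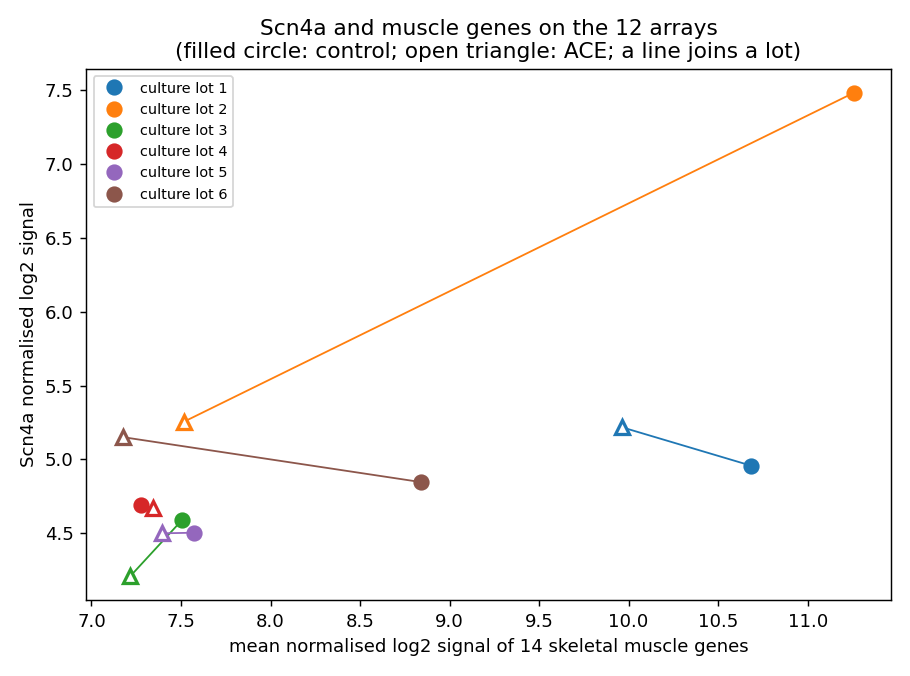
Normalised log2 signal of Scn4a (vertical axis) against the mean log2 signal of 14 skeletal muscle genes (horizontal axis) on the 12 arrays, with circles for control, triangles for ACE and a line for each lot. The control of lot 2 is highest on both axes, at 11.26 and 7.48, while both cultures of lot 1 have high muscle signals with Scn4a at 4.96 and 5.22.

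The region before the start of Scn4a is shown because myogenic transcription factors are known to bind the E-box, CANNTG. The 250 bases upstream were read from RefSeq on build GRCr8, at chr10:91796325-91796574 on the minus strand, and the capitals mark each CANNTG.
Scn4a upstream: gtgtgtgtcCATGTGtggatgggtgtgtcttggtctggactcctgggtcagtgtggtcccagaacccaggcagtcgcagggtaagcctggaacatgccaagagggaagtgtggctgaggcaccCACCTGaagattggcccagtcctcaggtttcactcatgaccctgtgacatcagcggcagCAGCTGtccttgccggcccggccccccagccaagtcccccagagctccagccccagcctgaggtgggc
The stretch held 3 matches, 1 of which was CAGCTG. The motif reads alike on both strands, and CAGCTG is itself a CANNTG. Of 33469 rat promoters of the same length, 65.5% held CANNTG and 12% held CAGCTG. Of the 6 members listed there, Scn2b held 3 matches, Scn4b 2 (both CAGCTG), Hcn2 1, and Scn3a and Scn8a 0. Such a match describes letters and not a bound site.

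Most of the spread of these genes lay between culture lots, not between control and ACE. The share of the sum of squares between lots was 96.0% for Scn1a, 95.9% for Scn3a, 92.0% for Scn8a, 78.7% for Scn2b, 91.3% for Scn3b, 92.3% for Scn4b, 66.3% for Scn4a and 97.6% for Hcn2, beside a median of 92.0% over all probes tested. The share between groups was largest for Scn2b, at 9.16%, beside a median of 1.42%. Taking the mean of both cultures of a lot, Scn1a ranged over 4.04-fold, Scn4a over 3.92-fold, Hcn2 over 3.42-fold, Scn3a over 3.29-fold, Scn2b over 2.55-fold and Scn8a over 1.58-fold. The ranges were narrower for Scn4b (1.36-fold) and Scn3b (1.30-fold). The largest difference within a pair was smaller than the range between lots on the log2 scale, except for Scn4a (2.23 against 1.97). The share of all probes for which this held is not given here, so it marks no trait of these genes. A lot was also a slide, lots 1, 2 and 3 were each a scan batch of their own, and lot 1 alone had the older software. Culture, slide, scan and software therefore cannot be told apart in these ranges.

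**Figure D4:**
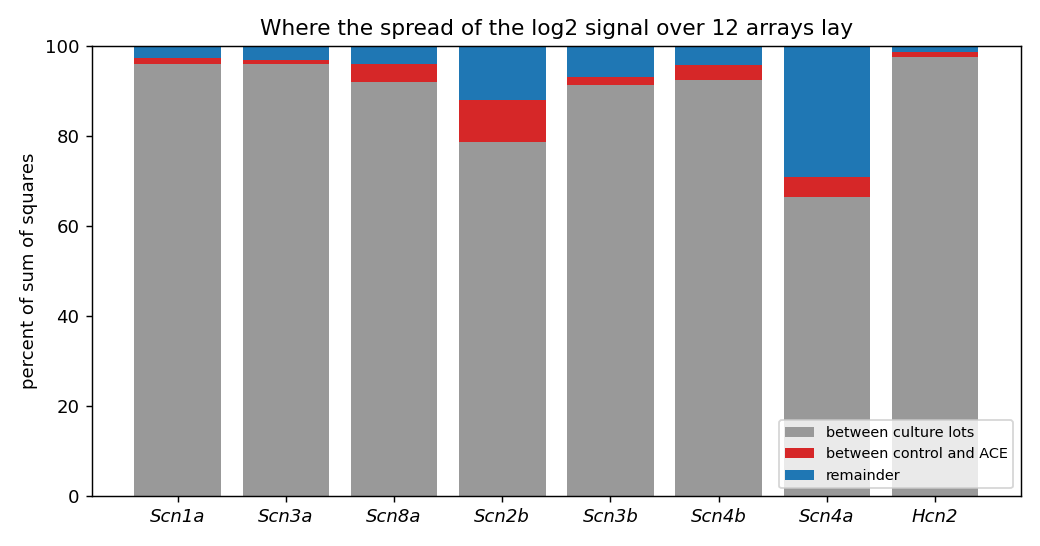
Percent of the sum of squares of the log2 signal over 12 arrays (vertical axis) that lay between the 6 lots (grey), between control and ACE (red) and in the remainder (blue), for each member. The red part is small throughout, 9.16% at most for Scn2b, and the blue part is widest for Scn4a at 29.1%.

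Lot 1 had the lowest mean of Scn1a, Scn3a, Scn8a and Scn3b. The mean Scn1a signal was 5.59 in lot 1 and between 6.83 and 7.60 in the other lots. The granule cell list (7 genes tested of 8) was also lowest in lot 1, at 7.89 in the control and 8.21 in the ACE culture, with highest values of 9.05 and 9.14. Gabra6, the GABA-A receptor subunit of mature granule cells, had signals of 4.80 and 5.65 in that lot. The list was not uniform, since Zic2, a transcription factor of the granule lineage, was highest in lot 1 in both groups, at 8.43 and 8.51. The Purkinje cell list (8 genes) was lowest in lot 1 too, at 9.64 in the control and 9.75 in the ACE culture, with highest values of 10.65 and 10.68. Here too the genes differed, as Pcp2 had its lowest control signal there, 9.13, and Calb1 its highest, 12.03. Over the 12 arrays of 6 lots, Scn1a and the mean of the granule cell list correlated at r = 0.924 (Spearman's rho = 0.720, r = 0.607 without the 2 arrays farthest from the median). Scn1a and Scn3a correlated at r = 0.787 (rho = 0.301), and r was −0.119 without the 2 farthest arrays, so that relation rested on lot 1. The arrays of a lot share cells and slide, these values are descriptions, and the part of cell composition in them was not tested.

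The genes whose signal was most like that of each member over the 12 arrays were named from 14509 probes by Pearson's r. For Scn1a they were Tmem145 (r = 0.989), Scn2a (r = 0.976) and Tfap2b (r = 0.975). In RefSeq's GRCr8 order Scn2a, which encodes Nav1.2, and Scn1a have 4 protein-coding genes between them, and Scn3a lies in the same cluster. The nearest for Scn3a were Map3k13, Cops7b and Cdk5r1 (0.977 to 0.972), and for Scn8a Krtcap3, Apbb1ip and Ocrl (0.963 to 0.941). Those of the β subunits were Rabep2, Nkpd1 and Necap1 for Scn2b (0.927 to 0.913), Nsa2, Ephb1 and Nab2 for Scn3b (0.961 to 0.920) and Trub2, Ndrg2 and Slc13a3 for Scn4b (0.983 to 0.907). For Hcn2 they were Myo9b, Pcsk6 and Desi2 (0.957 to 0.940). Scn4a was most like Ddx42 (r = 0.933, 0.814 without the 2 farthest arrays), a helicase gene with 6 protein-coding genes between it and Scn4a. Next came Fbxl20 (0.909 and 0.451) and Casq1, the calcium store protein of fast muscle (0.876 and 0.464). Over the 6 pair differences alone, r with Hcn2 was −0.52 for Pcsk6 and −0.45 for Desi2. It was 0.14 for Apbb1ip with Scn8a, 0.17 for Nab2 with Scn3b and 0.18 for Cdk5r1 with Scn3a. For the other genes named here it lay between 0.46 and 0.96.

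The other genes of both families were measured in the same fit. All 10 were on the array and 9 were tested with 11 probes, while Scn9a (Nav1.7) was not well above background on any array. Scn2a, Scn7a, Hcn3 and Hcn4 were detected on all 12 arrays. The sensory neuron channels Scn10a and Scn11a were detected on 1 and 2 control and on 4 and 4 ACE arrays. None passed the adjusted threshold, none rose and 1 of 11 probes fell at the unadjusted threshold, against 6.9% and 9.73% of all probes, and the median difference was −0.035.

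Genes that anchor, modify or accompany these channels showed small differences in both directions. Of 33 probes for 23 partner genes none passed the adjusted limma threshold, and 4 were higher and 3 lower at the unadjusted one, against 6.9% and 9.73% of all probes. The median difference was 0.027. Gpd1l, which encodes a protein like glycerol-3-phosphate dehydrogenase that is known to affect sodium current, differed by −0.17 ± 0.039 and was lower in 6 of 6 pairs (limma adjusted p = 0.157). Tnr, the extracellular tenascin-R that binds sodium channel β subunits, differed by 0.15 ± 0.049 on 1 probe (limma adjusted p = 0.219) and by −0.02 on the other. Nfasc, the initial segment and node adhesion protein neurofascin, differed by 0.15 ± 0.052 on 1 of 3 probes, higher in 5 of 6 pairs (limma adjusted p = 0.252). The other probes gave −0.01, with 3 pairs higher and 3 lower, and 0.07, higher in 6 of 6 pairs. The leak channel gene Nalcn gave 0.14 ± 0.048 on 1 probe, higher in 6 of 6 pairs, and −0.05 on the other, which was lower in 5 of 6.

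Arrays differed in brightness before normalisation, with 75th percentile intensities from 1803 to 4384 and 75.4% to 91.0% of spots above background. The 9 pan-neuronal genes on the array gave a mean signal of 9.51 to 10.09 in the 12 cultures, and all 39 tested probes of astrocyte, oligodendrocyte and microglia markers were above background on all 12, so RNA of glia was present. On every slide control RNA lay at place 1 and ACE RNA at place 3, and the effects of place and exposure cannot be told apart.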

How the data were processed

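Total RNA of 6 control and 6 ACE cultures was labelled with Cy3 and hybridised to 12 rat 4x44K arrays. Per the file headers, the authors extracted spot intensities with Agilent Feature Extraction (11.0.1.1 on both arrays of the first lot, 11.5.1.1 on 10 arrays, while the submitters' processing notes give 11.0.1.1 for all), which subtracted the background and removed spatial trends. The flags for spots above background, saturated or outlying were used as deposited. The authors also deposited log2 values, per their methods quantile normalised with every probe centred on its median, and these correlated at 0.997 to 0.999 per array with the centred values computed here.

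Control spots were dropped and outlier spots treated as missing (447 probe values). The log2 processed intensities were quantile normalised, spots of a probe were averaged, and probes were kept where above the 20th percentile on at least 7 of 12 arrays with at least 4 complete pairs. Saturated spots numbered 0. The number of arrays limits the precision.

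A two-sided limma model (version 3.58.1, lmFit with eBayes, R 4.3.3) was fitted with the replicate as a block, p-values were adjusted after Benjamini-Hochberg over all 23796 probes at 0.05, and the paired differences were also put through an exact signed-rank test (two-sided, 6 pairs). The block stands for the culture lot, which the study's methods say the groups of an experiment shared, and that a replicate number marks the lot was inferred. Arrays of the same number deviated together (r = 0.449 to 0.912, against −0.439 to 0.390 between different numbers). The script was tested on simulated data. Members were named whatever their result. Related and partner genes were named where past the unadjusted limma threshold or the same way in all 6 pairs, at most the 5 largest per list, with detection for every related gene, and for each member the 3 genes of highest r. The marker genes were named after their values were seen, and some related and partner genes that the rule names are not reported here. The members and lists were chosen with earlier results of these data known. Alternatives were a 75th percentile shift, normexp background (offset 50), the deposited log2 values, other filters, outlier spots kept, other treatments of the block, 1 scan batch and leaving out each replicate. Nicotine and imidacloprid cultures were not analysed here.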

Additional observations from a re-analysis of the deposited data

Results flagged for a closer look

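In 16 groups of 6 values, the control and ACE groups of the 8 members, 2 held a value set apart from the other 5 by Dixon's test, and chance alone sets apart about 1 in 20 groups. The Scn1a signal of control replicate 1 was 5.30 and that of the other controls 6.87 to 7.57. Its ACE partner was the lowest of the ACE cultures, at 5.89. The Scn4a signal of control replicate 2 was 7.48 against 4.50 to 4.96 in the other controls, and its ACE partner, at 5.26, was the highest of the ACE cultures. The cause of neither value was tested.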

How the results depend on the processing

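No member passed an unadjusted threshold in the reported fit, and over the alternatives each kept its direction except Scn4a (13 of 15) and Scn3b (14 of 15). These counts include the other filters and other treatments of the block, which left each difference itself unchanged, so that no direction could turn there. With normexp, 1 of 8 members passed in limma, where 18.1% of all probes did, and 1 in the signed-rank test (Hcn2), where 12.2% did, and Scn1a relative to Scn3a turned to −0.019. The 75th percentile shift left 4 partner probes past the threshold in place of 7, and 19.7% of all unadjusted calls were then higher in ACE, against 41.5% in the reported fit and 51.5% with the deposited values. Without the replicate block, 81 probes passed the unadjusted threshold in place of 3956, with 0 related and 0 partner probes. With the replicate as a random block, 5 of all probes passed the adjusted threshold, and 1 member (Scn2b) and 4 partner probes passed the unadjusted one, with 16.8% of all probes. In the scan batch of pairs 4 to 6 alone, 1 member (Scn2b), 2 related and 0 partner probes passed, with 14% of all probes, and the differences turned to 0.092 for Scn4a, 0.0051 for Scn3b, −0.11 for Scn1a relative to Scn3a and 0.0013 for Scn8a relative to Scn1a. Leaving out each replicate gave 0 to 2 members (Scn2b without replicate 1, Scn2b and Hcn2 without 3, Scn8a without 6) where 11.8% to 17.5% of all probes passed, 0 to 1 related probes (0 without replicate 2) and 4 to 6 partner probes (4 without replicate 2). It moved Scn4a from −0.47 to 0.032, Scn1a relative to Scn3a from −0.063 to 0.15, Scn8a relative to Scn3a from −0.072 to 0.084 and Scn8a relative to Scn1a from −0.11 to 0.0098. The causes were not tested. Scn2b was not tested under the stricter background filter, since its signal was above background on too few arrays.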
